A study of Mus musculus with 9 samples.

Results

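TACh-seq maps the stretches of chromatin that a nuclease can reach. In mouse embryonic fibroblasts (MEFs) it gave 26043 islands of accessible chromatin, which covered 77.8 Mb or 2.85% of the genome, and the text below describes where they lie, which genes they sit at and which sequences their centres hold. The islands were built from all 4881417 reads of the deposited table by joining reads that lay at most 600 bp apart. Of the 26209 regions of the series, namely these islands and the peaks of FUBP1 ChIP-seq, the islands are all but 166.

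The MEFs were primary cells taken from mouse embryos and kept for within 3 passages in DMEM with fetal bovine serum. For TACh-seq, wild-type (WT) and Fubp1 knockout MEFs had been transfected for 48 h with 100 nM siRNA, non-targeting or against Fubp2 (Khsrp), and 2 WT and 2 KOKD samples are labelled, KOKD standing for the knockout with the knockdown. All 4 labels name the same table, which has no library column and whose name refers only to the first WT library. Whether its reads come from that WT library alone or from several libraries is not known. WT and KOKD cannot be told apart here, nothing below has a replicate error, and the intervals given are exact 95% intervals for counting error only. Nuclei were digested for 3 min with Cyanase, a non-specific nuclease, and fragments of 100 to 600 bp were sequenced. RNA levels are the mean of 4 libraries from another preparation, 2 of low-MYC and 2 of high-MYC MEFs that were homozygous for Myc-Egfp, a fusion of MYC with a green fluorescent protein, and had been treated with 20 µM of the proteasome inhibitor MG-132 for 6 h before sorting. The FUBP1 ChIP-seq sample came from untreated MEFs at steady state.

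Most DNA in a nucleus is wound on nucleosomes and is hard for enzymes to reach. At promoters, where transcription starts, and at enhancers, which act on promoters from a distance, bound transcription factors and remodelling enzymes keep nucleosomes away, and a nuclease applied briefly releases short fragments from these places. Promoters are open in much the same way in many cell types, whereas the set of open enhancers differs widely between cell types. In fibroblasts, factors of the AP-1 family (dimers of JUN and FOS proteins), the TEAD factors with their partner YAP, and RUNX factors are known to bind many enhancers.

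The sequences that recur at the islands differed between promoters and distal sites. In the distal examples the capitals mark the AP-1 motif TGANTCA, which reads the same on both strands. They are the 3 islands with the most reads in 150 bp among distal islands that hold this motif near the point of most reads and hold no repeat-masked base there, so they were chosen for the motif and are shown only to illustrate it. Each is 200 bases of the plus strand around the point of most reads, read from GRCm38.p6, the assembly also called mm10. They lie at chr2:126303176-126303375, outside any gene and 149989 bp from the nearest transcription start site (TSS), that of Dtwd1, at chr5:135522498-135522697, in an intron of Hip1, and at chr9:43945392-43945591, in an intron of the noncoding RNA gene Gm30373.
Distal island, chromosome 2: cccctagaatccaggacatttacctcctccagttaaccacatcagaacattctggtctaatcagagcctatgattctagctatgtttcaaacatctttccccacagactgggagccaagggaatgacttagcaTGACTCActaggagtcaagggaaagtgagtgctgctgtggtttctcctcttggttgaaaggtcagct
Distal island, Hip1 intron: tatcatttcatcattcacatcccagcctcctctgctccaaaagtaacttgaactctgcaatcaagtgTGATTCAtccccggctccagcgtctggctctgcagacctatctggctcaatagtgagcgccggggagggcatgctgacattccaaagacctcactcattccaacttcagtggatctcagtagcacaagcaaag
Distal island, chromosome 9: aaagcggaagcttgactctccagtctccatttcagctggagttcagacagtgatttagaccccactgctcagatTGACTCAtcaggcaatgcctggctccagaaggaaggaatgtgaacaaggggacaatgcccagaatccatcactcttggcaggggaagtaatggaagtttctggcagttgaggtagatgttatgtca
These islands held 604, 325 and 730 reads, of which 181, 165 and 163 lay in the 150 bp of highest read number.

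For comparison, the 200 bases before the TSS are given for 3 genes of the lists below whose TSS lay inside an island, chosen after their values were seen and given on the gene's own strand. They are Vim, which encodes the intermediate filament protein vimentin, at chr2:13573727-13573926, Fn1, which encodes fibronectin, at chr1:71653201-71653400, and Acta2, which encodes smooth muscle actin, at chr19:34255591-34255790. Capitals mark the GC box GGGCGG bound by SP and KLF factors, the CCAAT box bound by NF-Y and the cyclic AMP response element (CRE) TGACGTCA, where these were found in the direction of the gene or on the other strand.
Vim: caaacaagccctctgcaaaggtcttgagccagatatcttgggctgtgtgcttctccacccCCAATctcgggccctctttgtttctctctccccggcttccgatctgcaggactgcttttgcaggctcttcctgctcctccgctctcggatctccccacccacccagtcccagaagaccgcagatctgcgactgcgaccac
Fn1: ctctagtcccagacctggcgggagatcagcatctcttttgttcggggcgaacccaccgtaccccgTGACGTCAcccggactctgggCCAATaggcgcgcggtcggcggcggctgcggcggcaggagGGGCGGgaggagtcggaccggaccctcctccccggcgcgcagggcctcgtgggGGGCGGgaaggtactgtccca
Acta2: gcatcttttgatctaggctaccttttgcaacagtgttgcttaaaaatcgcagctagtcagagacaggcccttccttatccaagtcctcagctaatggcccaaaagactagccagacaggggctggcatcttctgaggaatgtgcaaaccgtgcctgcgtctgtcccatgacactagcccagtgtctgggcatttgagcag
The Fn1 window held a CRE, a CCAAT box and 2 GC boxes, the Vim window held a CCAAT box and the Acta2 window held none of these letters. The islands over these starts held 728 reads at Vim, 554 at Fn1 and 407 at Acta2, all above the median of 144 reads given below.

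The islands were of kilobase size. Their median width was 2518 bp (2499 to 2543), 9 in 10 were between 1046 and 6406 bp wide, and the widest measured 58990 bp. A median island held 144 reads (142 to 145), with 75 reads at the 5th and 419 at the 95th percentile. The tenth of islands with most reads held 27.6% of all reads, so the reads were spread over many sites. Reads came from both strands almost equally, 49.96% (49.91 to 50.00) from the plus strand, and only 69 islands had a plus share outside 35 to 65%. Read lengths ran from 20 to 82 bases with a median of 66. The mapping quality was at its highest value, 42, in 92.4% of reads.

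The table holds only reads that lie in called regions. When reads were moved 75 bp in their own direction and set on a grid of 200 bp windows, gaps of at most 3 windows divided them into 25992 regions, and each of these started and ended with a window of at least 4 reads. Without the move only 32.6% of regions began with such a window. Each region held at least 42 reads. A gene with 0 reads therefore had no called region at its start, and how many reads lay there below the caller's threshold is not known.

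Islands lay both at promoters and far from them, and the size of each group depended on the list of starts. A total of 9625 islands, 37.0% (36.4 to 37.5), lay within 1 kb of the TSS of a gene in the RNA-seq table, and 9377 of these spanned the TSS itself. Another 2788 (10.7%) lay 1 to 10 kb away, and 13630 (52.3%, 51.7 to 52.9) lay over 10 kb away. The islands at TSSs held 47.9% of reads and the distal ones 42.4%. The distal group included 4218 islands over 100 kb from any such TSS, 16.2% of all. The median distance from the centre of an island to the nearest TSS was 13931 bp (13284 to 14666), but 6455 bp when the starts of all GENCODE M21 genes were used, and 40.7% of islands then lay within 1 kb and 41.1% over 10 kb away.

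Promoter islands were wider and held more reads than distal ones. Their median width was 2925 bp against 2272 bp in the distal class, their median read number 193 against 123, and their median density 65.4 against 56.6 reads per kb. Islands were classed by their nearest edge, so a wider island was more likely to reach a TSS. Measured from the centre, 29.5% of islands lay within 1 kb of a TSS. The part of this rule in the differences of width and read number was not tested. By distance, the median read number was 196 in islands that spanned a TSS, 128 at 10 to 50 kb and 107 beyond 500 kb. The distributions overlapped widely, since 5% of promoter islands held under 89 reads and 5% of distal ones over 319. By the annotation, the point of most reads lay in an exon in 38.6% of promoter islands and in 4.06% of distal islands, against 3.86% of the genome. Introns held it in 53.9% (53.0 to 54.7) of distal islands, against 40.9% of the genome.

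**Figure D1:**
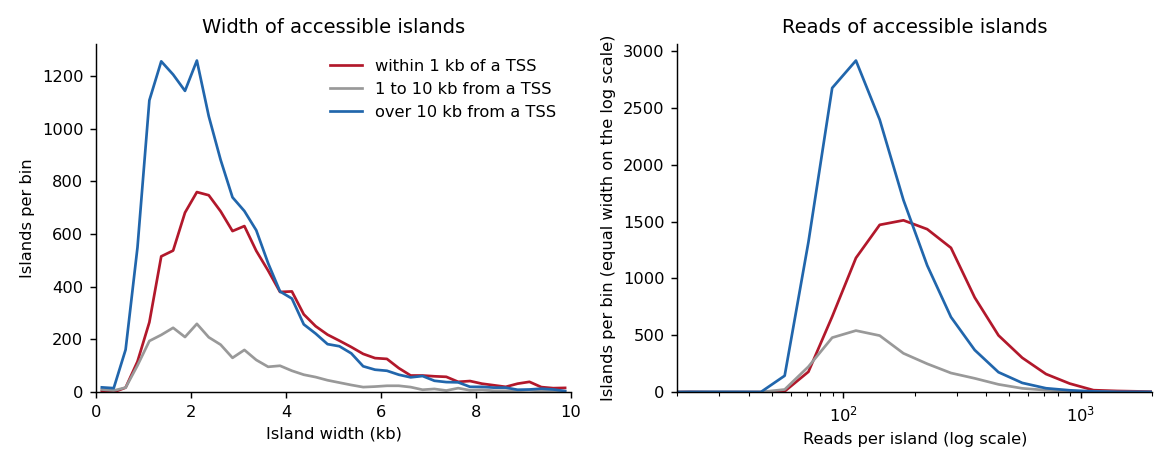
Number of islands by width in kb (left) and by reads per island on a log axis (right), for islands within 1 kb of a TSS, 1 to 10 kb away and over 10 kb away. The distal islands are the most numerous, and the promoter islands reach to larger widths and read numbers, with medians of 2925 bp and 193 reads against 2272 bp and 123 reads.

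The islands per chromosome followed its genes. The 19 autosomes carried 7.56 (chromosome 14) to 15.4 islands per Mb (chromosome 11), with a median of 10.6. Across the autosomes, islands per Mb and genes of the RNA-seq table per Mb had a Pearson's r of 0.890 and a Spearman's rho of 0.923 (n = 19), a description of chromosomes that come from the same libraries. The reads per Mb ranged from 1390 to 3157. Plus-strand shares were between 49.8 and 50.1% on all autosomes.

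The sex chromosomes stood below all autosomes. The X chromosome, of which female cells keep only a single copy active and males carry only a single copy, held 370 islands and 48706 reads, 2.16 islands and 285 reads per Mb. Chromosome 14, the lowest autosome, had 7.56 islands per Mb at 5.68 genes per Mb, against 3.78 genes per Mb on the X chromosome. Of the 390 X-linked genes that were expressed, here a mean normalized FPK of at least 0.1, 47.7% had an island at the TSS, against 69.6 to 85.8% on the autosomes. At those X-linked starts that had an island, the median was 111.5 reads, against 147 to 182 on the autosomes. A larger share of the X-linked islands, 54.1%, lay at a TSS than on any autosome (29.0 to 44.3%). The Y chromosome had 4 islands with 600 reads, none of them at a TSS. The sexes of the embryos were not used, and the part that copy number plays in these values was not tested.

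**Figure D2:**
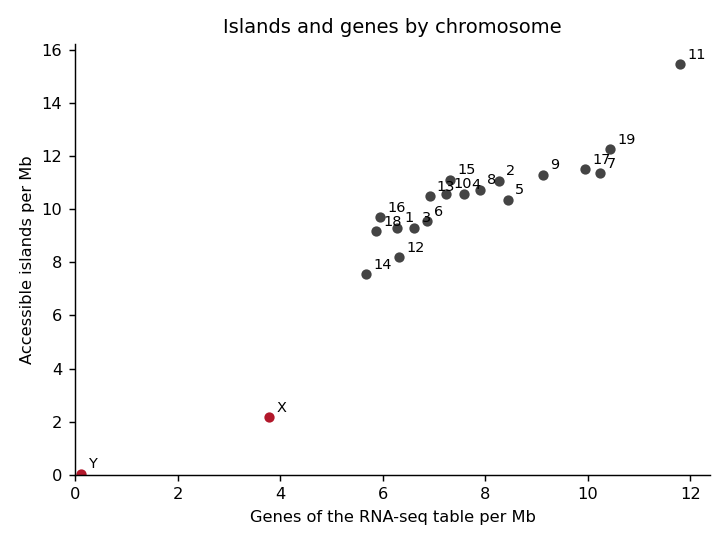
Accessible islands per Mb against genes of the RNA-seq table per Mb, each point a chromosome, autosomes in grey and X and Y in red. The autosomes rise together from chromosome 14 (7.56 islands per Mb) to chromosome 11 (15.4), and the X chromosome lies below them at 2.16.

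The islands were also unevenly spread within chromosomes. Of 2737 bins of 1 Mb, 465 (16.99%, 15.6 to 18.4) held none. The fullest bin, chr2:30000001-31000000, held 54 islands beside 34 TSSs, among them those of Set, a histone chaperone, and Ptpa, an activator of protein phosphatase 2A. Most of the 10 fullest bins were packed with genes, as on chromosome 10 (80 to 81 Mb), where 51 islands lay beside 53 TSSs that included Rps15, Oaz1 and Gpx4. A pair of the 10 differed from this. The bin chr7:112000001-113000000 held 46 islands but only 8 TSSs, with only 5 islands at a TSS, and its expressed genes were Usp47, a deubiquitinase, Parva, an adaptor of integrin adhesions, Tead1, a TEAD factor, Mical2, which oxidizes actin, and Dkk3, a secreted Wnt modulator. The bin chr2:27000001-28000000 held 45 islands beside 14 TSSs, and its most highly expressed gene was Col5a1, a fibrillar collagen chain.

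Some long genes held many islands. Among genes of at least 100 kb, Smad3, a transcription factor of the TGF-β pathway, had the most per length, 11 island centres or 9.89 per 100 kb. It was followed by Itgb5, an integrin chain, with 7.52 and Mical2 with 7.48. High values were also found for Tns1, a tensin that links integrins to actin, with 7.002, Nfix, a nuclear factor I protein, with 6.97, and Egfr, the receptor of epidermal growth factor, with 6.63. Glod4 had 7.33 and Vps53 6.75. These genes had RNA levels from 0.226 (Vps53) to 1.67 (Mical2) normalized FPK, where FPK is fragments per kilobase set to spike-in RNA. Of all protein-coding genes, 3.50% (3.21 to 3.801) held 5 or more.

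The widest islands exceeded 25 kb. The island at Myh9, the heavy chain of non-muscle myosin IIA, was 34581 bp wide with 1946 reads, and that inside Synpo, which encodes an actin-binding protein, was 31242 bp wide with 1988 reads. Csf1, the growth factor of macrophages, had an island of 31066 bp with 1358 reads, Fbln2, a matrix glycoprotein, 27455 bp with 1721 reads, and the noncoding RNA gene Neat1 25599 bp with 1601 reads. The islands of Amotl2, an angiomotin that binds YAP, and of Plec, which links filaments to adhesions, measured 25475 and 25121 bp. Plec held 2847 reads, the most of any distal island with a normal read density, and further distal islands with over 1000 reads lay inside Unc5b, Arhgap23, Actn1, Myh9 and Lmna. The 10 widest also included islands near Gm13835 (26980 bp) and Gm26870 (25781 bp). The widest of all, 58990 bp over the Mroh2a region of chromosome 1, had 78.2% of its reads at the highest mapping quality, against 93.9% outside the dense islands described next. That share was lower still, 0.446%, in the 9872 reads of the island near Gm26870, and 85.0 to 98.04% in the others of the 10 widest. Of the 100 widest islands, each at least 12924 bp, 58 spanned a TSS, which a wide island is more likely to do by its extent. The median RNA level of their nearest gene was 1.30, against 0.308 over all islands.

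A few islands had read numbers out of scale with the rest. The 22 islands with over 10 times the median density, above 597 reads per kb, held 1.92% of all reads in a median width of 519 bp. Only 16.1% of their reads had the highest mapping quality, and 80.1% shared their 5′ end with an earlier read, against 17.9% elsewhere. The island of most reads, 24734, covered Gm42418 on chromosome 17, and a pair of islands at Gm10800 and Gm10801 on chromosome 2 held 21075 and 10889. Other islands among the 10 with most reads lay near Gm2237 on chromosome 14, near Gm26870 and Rpusd4 on chromosome 9 and over Sfi1 on chromosome 11, with 3670 to 11293 reads. The distal islands of highest density were narrow ones near Pak3 (5483 reads per kb), in Chl1 (5267) and near Rpusd4 (3788). The island of 9872 reads near Gm26870 (383 reads per kb) and that over Sfi1 (221) were under the density cut and stayed in the sequence analysis below. The 22 islands above the cut were left out of it, and leaving them out changed the share of islands at TSSs only from 36.96 to 36.97%.

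A majority of genes with measured RNA had an accessible start. Of 19753 genes in the RNA-seq table, 11916 had an island within 1 kb of the TSS, a share of 60.3%, which is the background for the lists below whose members are all in that table. It was 68.3% (67.6 to 69.1) of protein-coding genes and 58.7% (56.6 to 60.8) of long noncoding RNA genes, but 2.65% (1.90 to 3.59) of processed pseudogenes, which are copies of mRNAs inserted elsewhere in the genome. Protein-coding genes of the GENCODE M21 annotation that are not in the RNA-seq table had an island in 3.90% of 6841 cases, and all protein-coding genes of that annotation in 48.2% of 21938. Of 1135 olfactory receptor genes, which are silent outside the nose, 6 had an island (0.529%).

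The share of accessible starts was larger at higher RNA levels up to about 1 normalized FPK and level above. Among protein-coding genes, 14.8% had an island at a normalized FPK of up to 0.001, 21.1% from 0.001 to 0.01, 46.1% from 0.01 to 0.1, 79.3% from 0.1 to 1 and 90.4% (89.5 to 91.2) from 1 to 10. Above that the share stayed at 90.3% up to 100, and beyond it 81 of 90 genes (81.9 to 95.3%) had an island. The reads at starts with an island differed less, with a median of 106 within 1 kb in the lowest class and 186 in the highest, with quartiles of 76.5 to 152.5 and 124 to 269. Across all genes, reads at the TSS and RNA level had a rho of 0.460, and among expressed genes with an island a rho of 0.132, both descriptions across genes of the same libraries. Long noncoding RNA genes had islands in 43.2% of cases even at FPK of up to 0.001.

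Reads gathered around the start, with the highest bin just before it. Within 1 kb, 49.2 to 51.1% of the reads lay downstream, depending on the RNA class. In bins of 50 bp along protein-coding genes, the highest value in every RNA class lay 25 bp upstream of the TSS, at 13.1 reads per gene for FPK over 10, 12.7 for 1 to 10, 10.1 for 0.1 to 1 and 3.20 for up to 0.1. From 2325 to 2775 bp downstream the most highly expressed class still had 0.756 to 1.003 reads per bin and the lowest 0.131 to 0.160. In the 4 bins beyond, up to 3 kb, the lowest class had 0.232 to 0.311.

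Starts with and without islands differed in base composition. CpG islands are stretches rich in GC and in CpG dinucleotides that mark most promoters of broadly used genes. Of 11208 starts with a GC content of at least 50% and an observed over expected CpG ratio of at least 0.6 in 300 bp, 79.9% (79.2 to 80.7) had an island, against 34.6% (33.6 to 35.6) of the 8545 other starts. The gap held in each RNA class of protein-coding genes. At FPK of up to 0.01, 33.1% of CpG-rich and 11.4% of CpG-poor starts had an island, and at FPK over 10 the shares were 94.2 and 79.0%.

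**Figure D3:**
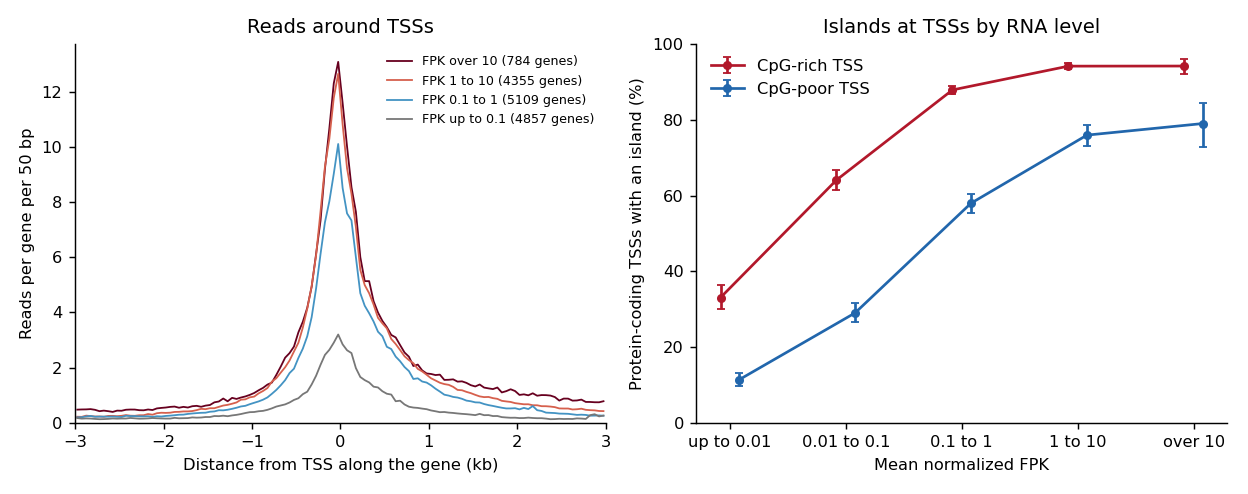
Left, reads per protein-coding gene in 50 bp bins around the TSS, with distance in kb along the gene, for 4 classes of mean normalized FPK, all of which peak 25 bp upstream. Right, percent of protein-coding TSSs with an island by FPK class, with exact 95% intervals, where CpG-rich starts lie above CpG-poor ones in each class, 33.1 against 11.4% in the lowest and 94.2 against 79.0% in the highest.

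Marker genes were used to check the label of the cells. Of 20 fibroblast genes, 18 had an island at the TSS, against the 60.3% of all genes, and their median was 175.5 reads within 1 kb, against 90 over all genes. However, 19 of the 20 were expressed, with a median of 8.13 normalized FPK. Of all expressed genes 76.8% had an island, with a median of 127 reads. Of protein-coding genes from 1 to 10 normalized FPK 90.4% had one, so the share in this list was that of genes of like RNA level. Among collagen genes, Col1a1 had 267 reads, Col1a2 179, Col3a1 109, Col5a1 450 and Col6a1 107. Vim had 506, Fn1 409, Thy1, a surface protein of fibroblasts, 191, and the receptors of platelet-derived growth factor Pdgfra and Pdgfrb 86 and 226. The transcription factor genes Twist1 and Prrx1, which act in mesenchyme, had 175 and 176. The exceptions were Dcn and Lum, small proteoglycans of the matrix, with 0 reads at the TSS although their RNA was at 1.16 and 2.39 normalized FPK. Sparc, a matrix protein with 66.3 normalized FPK, had 44 reads at the outermost start and 169 at another annotated start. Fap, which encodes a surface protease, had 71 reads at 0.0452 normalized FPK.

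All 12 genes of AP-1 and of the early response to growth factors had an island, with a median of 259 reads, the highest of the lists. Their median RNA level was 5.94 normalized FPK, and 90.4% of protein-coding genes from 1 to 10 had an island. Fosl2 had 669, Jun 469, Jund 425, Junb 277 and Fos 241, and Fosl1, with 59, and Fosb, with 104 at the outermost start and 215 at another, had fewer. Egr1, a zinc finger factor of the same response, had 408 and Srf, which drives many of these genes, 323. Atf3, a stress-induced factor at 0.0629 normalized FPK, had 10 at the outermost start and 363 at another annotated start. Of 12 contractile and YAP/TEAD target genes, 11 had an island, with a median of 197 reads. The median RNA level was 58.8 normalized FPK in this list and 28.7 in the housekeeping list. From 10 to 100 normalized FPK, 90.3% of protein-coding genes had an island. Vcl, the adhesion protein vinculin, had 467, Ccn2 and Ccn1, matrix proteins that are classic YAP targets, 283 and 206, Acta2 245, Tagln, an actin-binding protein, 217 and Ankrd1 188. Myl9, a myosin light chain, had 150, and Cnn1, a calponin of smooth muscle, had 0 reads at 9.93 normalized FPK. Of 15 housekeeping genes 13 had one, with 522 reads at Gapdh, a glycolytic enzyme, and 428 at Polr2a, the largest subunit of RNA polymerase II, and Eef1a1 and Ywhaz, with 0 reads at the outermost start, had an island at another annotated start.

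Few markers of other cell types had an island. Most genes of some of these lists are not in the RNA-seq table, so they were counted among all GENCODE M21 genes, where the share for protein-coding genes was 48.2%. It was 3.90% for protein-coding genes absent from the RNA-seq table and 14.8 to 46.1% for its classes up to 0.1 normalized FPK. Only 2 blood, 1 neural, 2 skeletal muscle, 1 epithelial and 1 endothelial gene of the lists were expressed. The counts can therefore not be read as a lack particular to other cell types. By the annotated starts, 1 of 12 blood cell genes, 4 of 12 neural, 1 of 8 skeletal muscle and none of 8 epithelial, 7 endothelial, 8 liver and 8 pluripotency genes had an island. Among those at 0 were the defining genes Ptprc, Cdh1, Pecam1, Alb, Pou5f1, Nanog and Myod1. Of the exceptions, Mylpf, a muscle myosin light chain with 612 reads at 0.0528 normalized FPK, starts 422 bp from Tbc1d10b (4.01 normalized FPK). Tubb3, a neuronal tubulin, had 96 reads at 4.39 normalized FPK, Map2, a neuronal microtubule protein, 76, Gfap, an astrocyte filament, 67, Klf1, an erythroid factor, 28 and Slc17a7 1. Their nearest other TSS was over 6 kb away in each case. At the starts of its basic transcripts, Gfap had no island and 0 reads. Csf1r, a receptor of macrophages, had an island only at another annotated start, with 20 reads. Lyz2, a lysozyme of myeloid cells, and Acta1, skeletal muscle actin, had 0 reads at 9.28 and 9.43 normalized FPK. The RNA came from another preparation of cells, as described above. In such bulk samples, fewer cells of a type and less RNA or accessibility per cell cannot be told apart.

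**Figure D4:**
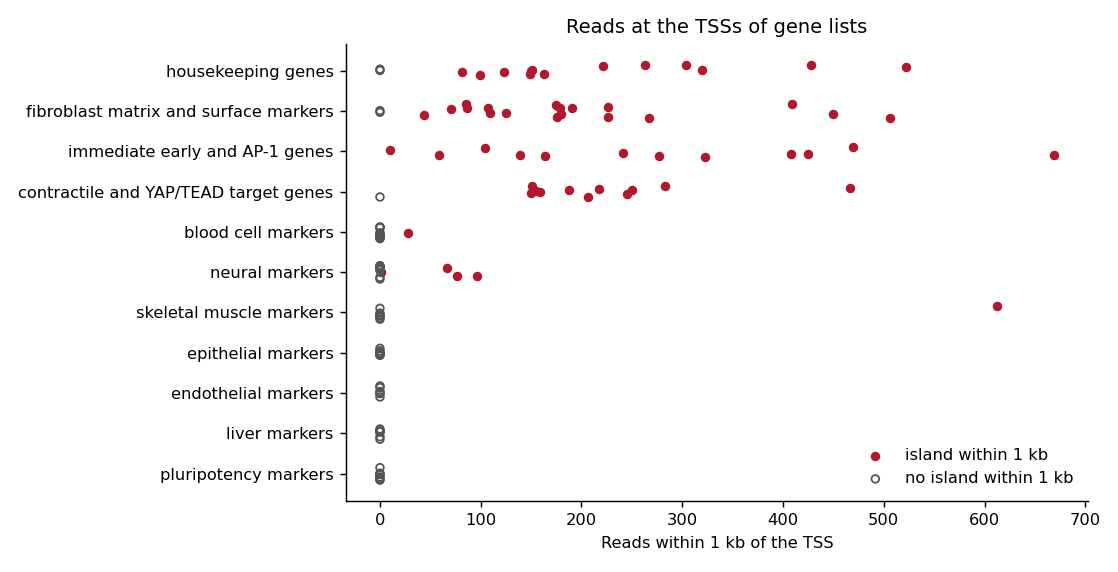
Reads within 1 kb of the annotated TSS for each gene of the 11 lists, one point per gene, filled red where an island lay within 1 kb and open where none did. Nearly all genes of the first 4 lists are filled, 18 of 20 for the fibroblast list, while the epithelial, endothelial, liver and pluripotency genes all sit at 0.

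Islands away from starts were counted around the same genes. For islands over 1 kb from any TSS whose centre lay within 50 kb of the gene's start, the median number was 2 for the fibroblast and for the AP-1 list and 3 for the contractile list, against 1 for all genes of the RNA-seq table and for the housekeeping list. Among the lists of other cell types it was 1.5 for epithelial, 1 for endothelial and 0.5 for skeletal muscle genes, and 0 for blood, neural, liver and pluripotency genes. Col5a1 had 9 such islands, Col1a1 and Col1a2 6 each, and Fosb, Sparc, Thy1 and Prrx1 5 each. Some markers of other cell types had as many, with 6 at Krt8 and 4 at Krt18, keratins of simple epithelia, 5 at Des, a muscle filament, and 4 each at Nanog and Csf1r. Fn1, Postn, Twist1 and Fosl1 had 0. By RNA level the median was 0 at FPK of up to 0.1 and 1 above it, and 39.0% of genes above 10 had none. Liver genes lacked such islands in 87.5% of 8 cases. The share was 47.8% of all genes of the RNA-seq table and 54.1% of those up to 0.01 normalized FPK. Only 1 of the 8 liver genes is in that table, and the share for genes absent from it was not computed. A lack particular to liver genes is thus not shown.

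Some highly expressed genes had no island. Those of highest RNA were Gm10925 and Gm28661, pseudogenes on chromosome 1, with 1142 and 996 normalized FPK. Tmsb4x, an X-linked gene for an actin-sequestering peptide, followed with 614, and Spp1, the secreted protein osteopontin, had 309. Gm7536, Gm10123 and Tpt1-ps3, at 230 to 290 normalized FPK, are processed pseudogenes. Reads of pseudogenes, Gm10925 and Gm28661 among them, cannot always be separated from those of near-identical sequences elsewhere. How much of the RNA came from such copies was not tested for any gene named here. Gm10076, a noncoding gene, and Eno1b, an enolase, had 237 and 227. Conversely, 874 of 3280 genes at under 0.01 normalized FPK (26.6%, 25.1 to 28.2) had an island. In 33.0% (29.8 to 36.2) of these the TSS lay within 1 kb of that of an expressed gene, against 1.33% of the 2406 such genes without an island. Trpm8, with 731 reads the highest of them but 81 at the starts of its basic transcripts, starts 28 bp from Hjurp, which encodes a centromere chaperone, and Gm13986, with 578 reads, 674 bp from Thbs1, the matrix protein thrombospondin, which had 877 normalized FPK. The noncoding gene 1110020A21Rik, with 671 reads, starts 969 bp from Ppm1b, which encodes a protein phosphatase. Camta1 and Hk1os, with 651 and 594 reads, had their nearest other start 71815 and 39652 bp away.

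The centres of promoter and distal islands differed in composition. In the 300 bp around the point of most reads, the median GC content was 63.3% at TSSs and 47.0% in distal islands, against 41.7% in the genome. The median CpG ratio was 0.773 at TSSs and 0.197 in distal islands, close to the genome's 0.190, and 73.7% of TSS windows but 4.003% of distal ones were CpG-rich by the definition above. Repeats covered a median of 0% of TSS windows and 7% of distal windows, and 36.4% of all bases of the genome. The genome's values for GC, CpG ratio and repeats are taken over all bases and are not medians of windows. The sizes of the differences can therefore not be read from them.

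The AP-1 motif was found in 47.2% (46.4 to 48.1) of 13614 distal windows of 300 bp, in 7.70% (7.18 to 8.25) of 9620 windows at TSSs and in 8.84% of all windows of this length in the genome. Within the distal class it was found in 49.5% of windows outside genes and 45.0% of those inside them. The motif stood at the very point of most reads. At distal islands there were 12.2 motifs per 100 islands in the 50 bp next to it, as against 1.62 near 2 kb away, whereas at TSSs the AP-1 profile stayed at 1.72 or below at all distances. By read number, the share was 38.0% (36.2 to 39.9) in the fifth of distal islands with the lowest read peaks and 52.5% (50.6 to 54.4) in the highest.

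Motifs of other enhancer factors differed less. TEAD (GGAATG) was found in 33.3% of distal windows against 12.99% at TSSs and 15.9% of the genome, and RUNX (TGTGGT) in 30.4% against 11.8 and 19.9%. Distal windows with an AP-1 motif had a TEAD motif in 31.1% of cases and those without it in 35.2%. The GATA motif (AGATAAG), of factors of blood and endoderm, was found in 4.24% of distal windows and 4.42% of the genome. The long CTCF motif, of the factor that bounds chromatin loops, was present in 1.30% of distal windows, 0.904% of TSS windows and 0.870% of the genome, and it was rarer in distal windows with AP-1 (0.498%) than in those without (2.02%).

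Promoter islands held other motifs. The GC box was found in 65.02% (64.06 to 65.97) of TSS windows, 8.88% of distal windows and 2.81% of the genome, and its profile formed a broad mound with 24.0 motifs per 100 islands next to the point of most reads. The ETS motif (CCGGAAG) was found in 18.3% against 1.81 and 0.837%, the CRE in 3.56% against 0.676 and 0.160%, the E-box CACGTG, which MYC with MAX and related factors bind, in 10.4% against 4.08 and 2.88%, and the NRF1 motif in 2.10% against 0.147 and 0.0178%. The GC box, ETS, CRE, E-box and NRF1 motifs all hold CpG, and the higher CpG content of TSS windows is given above. The part of CpG content in these shares was not tested. The CCAAT box was as frequent at TSSs (39.8%) as in the genome (40.8%), but its share was 27.5% in the fifth of promoter islands with the lowest read peaks and 58.8% in the highest, and the GC box was found in 53.6 and 77.5%. A match to these letters is a description and not a measured site of binding.

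**Figure D5:**
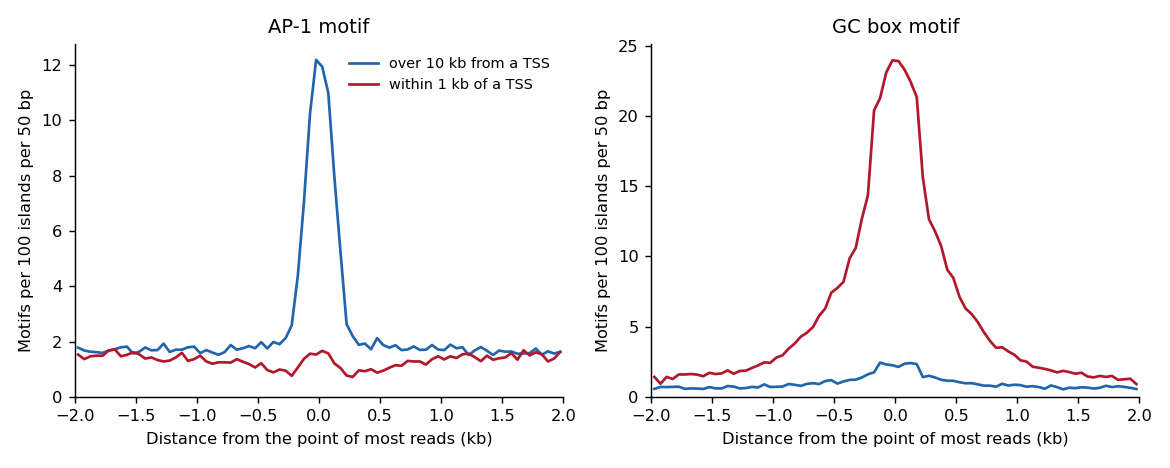
Motifs per 100 islands in 50 bp bins against distance in kb from the point of most reads, for the AP-1 motif (left) and the GC box (right), in distal islands (blue) and islands at TSSs (red). The AP-1 motif peaks at 12.2 in distal islands and stays low at TSSs, while the GC box peaks at 24.0 at TSSs.

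The genes that the study turns on all had accessible starts. Khsrp, the gene of FUBP2, had 806 reads within 1 kb of the TSS, Myc 224 and Fubp1, whose protein binds DNA upstream of Myc, 180. Their RNA levels were 7.29, 15.1 and 2.67 normalized FPK. Of protein-coding genes, 90.4% from 1 to 10 and 90.3% from 10 to 100 normalized FPK had an island. An accessible start was therefore common to genes of like RNA level. The island over the Myc start, chr15:61982983-61989778, held 556 reads in 6796 bp. On chromosome 15, 43 of the 166 FUBP1 ChIP-seq peaks (25.9%, 19.4 to 33.3) overlapped an island by at least 1 base, and 17.2% of the bases of the peaks lay inside islands, which cover 3.43% of that chromosome. Conversely, 40 of its 1156 islands (3.46%, 2.48 to 4.68) overlapped a peak, 5.37% (3.36 to 8.09) of those at a TSS and 2.19% (1.20 to 3.65) of the distal ones.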

How the data were processed

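TACh-seq of MEFs was analysed from the positions of reads. According to the methods, low-quality bases were removed from both ends, Bowtie2 placed the reads on mm10 and SICER called the peaks. The deposited table lists a position, strand and mapping quality score for each read, without a library column, and its name refers only to the first WT library. For RNA-seq, the authors aligned reads with TopHat, quantified them with Partek and divided FPK by a score of ERCC spike-in transcripts, so the deposited signal values follow cell number, and 16 genes of the mitochondrial genome were left out here. For FUBP1, the authors deposited peak positions for chromosome 15. Stop positions of the RNA-seq table, 1 base too far, were moved back.

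Islands, distances, motif matches on both strands and shares with exact Clopper-Pearson intervals were computed with samtools 1.23.1, numpy 2.4.6, pandas 2.3.3 and scipy 1.17.1 under Python 3.11.15 on GRCm38.p6 (RefSeq) and GENCODE M21. The depth of the libraries before peak calling is unknown. No test was run, since no replicate can be read from the table. The steps were tested on simulated data, where 100% of 2000 islands and their distances were recovered. Alternatives covered the joining gap, mapping quality, repeated reads, the read minimum, the TSS distance and list, the RNA libraries and the motif window.

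The genes named are the 10 islands with most reads and the 10 widest, the extreme members of each list, the 10 genes of highest RNA without an island, the 5 genes under 0.01 normalized FPK with most reads, the 3 densest distal islands, and Myc and Fubp1. Other genes, Khsrp among them, were named after their values were seen. Members and lists were chosen with earlier results of these data known. Some items are not reported here.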

Additional observations from a re-analysis of the deposited data

How the results depend on the processing

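Of 112 values recomputed under an alternative, 79 stayed within the interval of the reported value (for counts, within 1.5 times), and 33 did not. The cause was not tested unless the alternative itself changes what is counted. The number of islands ran from 25361 (gap of 1000 bp) to 36055 (gap of 200 bp). The median width was 1815 bp with a gap of 200 bp, 2547 bp with a gap of 1000 bp and 2600 bp on the 200 bp grid. The share of islands within 1 kb of a TSS was 29.0% and 37.7% with these gaps, 29.5% from the island's centre, 41.99% at a TSS distance of 5 kb and 40.7% with the starts of all M21 genes. With those starts, 41.1% of islands lay over 10 kb from a TSS, the median distance was 6455 bp, and islands within 1 kb held 51.7% of reads. That share of reads was 46.0% with a gap of 200 bp, 49.0% with a gap of 1000 bp, 46.1% with each 5′ end counted once, 47.8% at a mapping quality of at least 30 and 47.6% without the dense islands. The share of genes with an island was 59.6% at 500 bp, 65.6% at 5 kb and 63.3% with any start of a basic transcript. That of expressed genes was 80.1% with any start and 84.4% at FPK of at least 1, and ran from 76.2 to 77.4% without each RNA library in turn, with the rank correlation from 0.459 to 0.462. Motif shares depend on the window. With 150 bp, AP-1 was found in 29.9% of distal islands and 4.25% at TSSs, TEAD in 20.5 and 6.99%, and the GC box in 4.97 and 44.3%. Over whole islands these were 79.0 and 54.1%, 80.4 and 76.1%, and 29.98 and 91.5%, with the same order between both classes. The grid, the 5′ end, the dense islands and the lists of starts were alternatives chosen after seeing the data. No paired analysis was possible because the TACh-seq table carries no library and no result comes from a test between groups. Reads below the caller's threshold are not in the table, so a start without an island was not called at this depth and is not shown to be closed.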

Other observations

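The islands 1 to 10 kb from a TSS lay between the promoter and the distal classes in the sequence at their point of most reads. Among 2787 such windows, 38.3% (36.5 to 40.1) held the AP-1 motif and 20.3% (18.8 to 21.8) the GC box, and 14.6% were CpG-rich. Starts without an island held fewer promoter motifs in the 300 bp around them than starts with an island. The GC box was found around 29.99% of 7837 starts without and 65.1% of 11916 starts with an island, and the ETS motif around 5.68 and 18.5%. The AP-1 motif went the other way, with 7.08 and 4.36%. These are descriptions of sequence and no test was made of them.

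In 1 dense island, of 2428 reads and at a TSS, at least 50% of the 31-base words around the point of most reads were also found in the mitochondrial genome, and reads of the mitochondrial genome were not used here. This comparison was chosen after the data were seen.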
